A study of Mus musculus with 18 samples.

Results

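The comparison described here is the effect of Dap5 knockdown on heavy polysomes relative to its effect on total mRNA, taken gene by gene in 4T1 cells. It rests on 12 of the 18 libraries of the study, which were chosen by their sample titles: input and heavy polysome RNA of a control arm and of a knockdown arm, with 3 libraries in each of the 4 groups. 4T1 is a carcinoma line derived from the mammary gland of BALB/c mice and is widely used to model triple-negative breast cancer. All groups carried a doxycycline-inducible hairpin and all received doxycycline (2 µg/ml) for 6 days. In the NSi groups the hairpin was non-silencing, and in the shDap5 groups it was directed against Dap5, whose gene is named Eif4g2. Input is RNA of the unfractionated lysate, and heavy is RNA of the pooled heavy polysome fractions of a sucrose gradient; both were polyA-selected. Each arm is a single hairpin line, and uninduced cells were not analysed here. Whether replicate libraries stem from independent cultures is not stated in the labels, so the p-values reflect only how much these libraries vary, and that variation may be technical.

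A messenger RNA that is being read by many ribosomes sediments in the heavy part of a sucrose gradient, so its level there depends both on how much of the mRNA a cell holds and on how many ribosomes each copy carries. Setting the heavy level against the input level separates these contributions. DAP5 is a relative of the scaffold eIF4G1 that lacks the binding site for the cap-binding protein eIF4E; it joins eIF4A and eIF3 and has been studied as a route to initiation that continues when mTOR and eIF4E are restrained. The series title places it, with the eIF3 subunit eIF3d, in mesenchymal transition and metastasis. The value given below for each gene, called the relative effect, is the log2 change from NSi to shDap5 on heavy polysomes minus the log2 change from NSi to shDap5 in input. A negative value means that heavy polysomes held less of the mRNA in shDap5 than its input level would give, and a positive value means that they held more. Levels are TMM-scaled CPM, that is counts scaled to library size. Such levels are shares of a library, so a fall in one mRNA and a rise in the others cannot be told apart.

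Total counts ran from 49130045 to 69233705 in the inputs and from 30385863 to 71331978 on heavy polysomes. Marker genes of lymphocytes and red cells summed to at most 0.288 and 0.198 CPM in any library, and those of endothelial cells and adipocytes to at most 4.15 and 5.57 CPM. Fibroblast markers summed to 11.5 to 46.4 CPM, mostly Pdgfra (mean 24.1 CPM), with Dcn at a mean of 0.268 CPM. Macrophage markers summed to 38.2 to 124 CPM, mostly Cd68 and Cd14 (means 49.3 and 21.5 CPM), with Lyz2 and Mrc1 at means of 0.499 and 0.674 CPM. Csf1r, the receptor of the macrophage growth factor CSF1, rose from 2.26 to 10.5 CPM in input (edgeR adjusted p = 6.531e-05) and from 4.68 to 14.2 CPM on heavy polysomes (adjusted p = 0.002036). Its relative effect was -0.61 (SE 0.36). Other markers did not share this rise. Cd68 went from 43.05 to 24.63 CPM in input (edgeR adjusted p = 0.4256) and from 67.76 to 61.86 CPM on heavy polysomes (adjusted p = 0.934). The 5 tested macrophage markers had a median log2 change of -0.805 in input and -0.132 on heavy polysomes. The part of such cells in the results was not tested. The own-type keratin Krt8 had group means from 335.6 CPM in NSi input to 1321 CPM in shDap5 heavy. Libraries differed more on heavy polysomes than in input: the median standard deviation of a gene's log2 CPM within a group was 0.269 and 0.279 in NSi and shDap5 heavy, against 0.0768 and 0.164 in NSi and shDap5 input. Some libraries stood apart from their groups, in both arms. The library NSi heavy 3 correlated with its group at a mean r of 0.9403, against 0.9584 and 0.9577 for NSi heavy 1 and 2. The library shDap5 input 2 correlated with its group at a mean r of 0.9583, against 0.9782 and 0.9768 for the other two. The library shDap5 heavy 2 stood at a mean r of 0.9273, against 0.9508 and 0.936, and 13 genes described below were much higher in it than in the rest. Of 72 genes followed one by one, 41 moved by over 1.5 times when some single library was left out, 14 of them without shDap5 input 2. Where the median of a gene list turned sign or moved by over 1.5 times on leaving out 1 library, such values are given beside it.

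Eif4g2, the target of the hairpin, checks the labels. In NSi inputs it stood at 799, 759 and 852 CPM and in shDap5 inputs at 592, 340 and 671 CPM, in the order of the library numbers. On heavy polysomes it stood at 864, 822 and 660 CPM in NSi and at 358, 277 and 222 CPM in shDap5. The arms did not overlap in either fraction, and shDap5 input 2 had the lowest input level. The means were 803.3 ± 46.3 and 534.4 ± 172.6 CPM in input and 782 ± 107.9 and 285.6 ± 68.46 CPM on heavy polysomes (SD, n = 3 each). The log2 change was -0.59 in input (edgeR adjusted p = 0.202) and -1.45 on heavy polysomes (adjusted p = 0.003487). Its relative effect of -0.87 (SE 0.36, 95% interval -1.62 to -0.11) had an adjusted p of 0.9996 and an unadjusted p of 0.02746. Taken by library number it was -0.84, -0.41 and -1.23, below 0 in 3 of 3. On leaving out 1 library it ran from -1.11 (without shDap5 input 2) to -0.664 (without shDap5 input 3), and without the shDap5 libraries of number 3 it was -0.516. So the input mRNA of the target differed less between the arms than its heavy polysome mRNA did, by an amount that did not pass the test over all genes.

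No gene passed the test of the relative effect. Of 15072 genes tested with edgeR's quasi-likelihood test, 0 had an adjusted p under 0.05 (0%; the lowest adjusted p was 0.9996), and 295 had an unadjusted p under 0.05 (1.96%), 158 of them higher and 137 lower. Genes without any difference would on average fall under that p in a share of 0.05, and 1.96% is less. An unadjusted p under 0.05 in this fit therefore does not single out a gene. DESeq2 and limma-voom also called 0 genes, with 360 and 339 at an unadjusted p under 0.05. The precision behind this is a median standard error of 0.338 on the log2 scale, or 0.279 among the 10242 genes that averaged 5 CPM or more over the 12 libraries. An absence of calls at this precision does not show that loading was the same in both arms. The replicate numbers paired NSi and shDap5 libraries of the same fraction, and a fit with the number as a block within each fraction had 1571 genes at an unadjusted p under 0.05 (10.4%; 825 higher, 746 lower). It still called 0, with a lowest adjusted p of 0.253.

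Many mRNAs differed between the arms, and genes called in either fraction mostly differed in the same direction in both. With a single hairpin line in each arm, loss of Dap5 and other differences between the lines cannot be told apart. In input 1047 genes were called (6.95%; 453 higher, 594 lower), and on heavy polysomes 595 (3.95%; 306 higher, 289 lower). Of the 1047 genes called in input, 1039 had the same sign on heavy polysomes, and of the 595 called on heavy polysomes 590 had the same sign in input. Over all 15072 genes tested, 10777 (71.5%) had the same sign in both. The 422 genes called in both fractions all had the same sign in both, with a median absolute log2 change of 1.5 in input and 1.38 on heavy polysomes and a median absolute relative effect of 0.224. The genes called in input had a median absolute change of 1.38 there and 0.957 on heavy polysomes; those called on heavy polysomes had 1.18 in input and 1.27 on heavy. Each of those sets was chosen by its p in one fraction, a choice that favours large values in that fraction. Over all 10242 genes at 5 CPM or more, changes in input and on heavy polysomes, which come from different libraries, had a Pearson r of 0.709 across genes, and 63 genes had a relative effect of at least 2-fold.

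**Figure D1:**
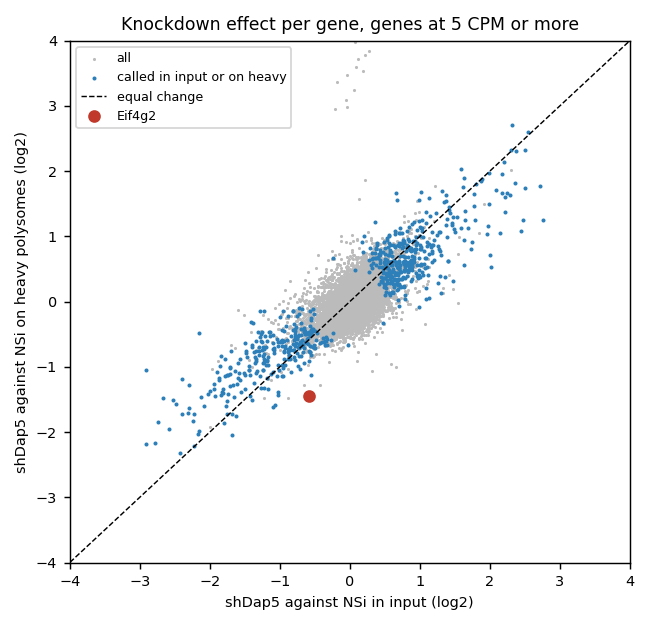
Log2 change from NSi to shDap5 in input (x axis) against the same change on heavy polysomes (y axis), for the 10242 genes averaging 5 CPM or more; each point is a gene, blue points were called in either fraction, and the dashed line marks equal change. Most called genes lie along the line, Eif4g2 lies below it at -0.59 and -1.45, and a column of grey points near 0 on the x axis and near 3 to 4 on the y axis holds genes that were high in shDap5 heavy 2.

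The library numbers did not give the same picture. When the relative effect was formed from the 4 libraries of one number at a time, 277 genes at 5 CPM or more reached 2-fold with number 1 (158 higher, 119 lower), 22 with number 2 (14 higher, 8 lower) and 419 with number 3 (234 higher, 185 lower). Across genes, values of numbers 1 and 3 had a Pearson r of 0.559, those of numbers 1 and 2 an r of 0.0151, and those of numbers 2 and 3 an r of 0.00688. These are descriptions over 10242 genes, which are not independent replicates. The same split was present in the input arm of the comparison, where the knockdown changes of numbers 1 and 3 had an r of 0.948 and those of number 2 had an r of 0.535 and 0.531 with them. On heavy polysomes the 3 correlations were closer together, at 0.463, 0.563 and 0.637. Leaving out shDap5 input 2 raised the genes at an unadjusted p under 0.05 to 1424 and the calls to 9 (0.0597%; 7 higher, 2 lower), whereas no other single library, left out in turn, gave a call. Leaving out all number 2 libraries from the fit blocked by number within fraction, an analysis added after seeing the data, called 419 genes (2.78%; 225 higher, 194 lower). Among the 72 genes followed one by one that analysis called 40, Eif4g2, Ptbp2, Neil3, Cst6 and Nqo1 among them. Those 72 genes were largely chosen by their p-values or values in these same libraries, so that count gives no separate support. The blocked analysis without number 2 rests on 2 libraries a group and leaves out the number that differed from the others. Its counts for the gene lists below give no separate support either, since that number was left out after its values were seen.

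**Figure D2:**
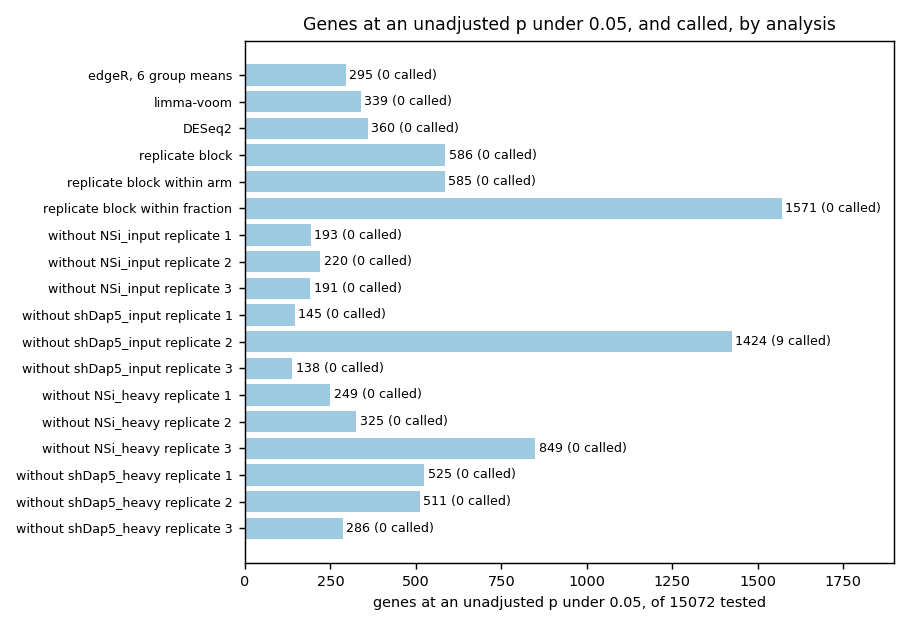
Number of genes at an unadjusted p under 0.05 for the relative effect (bar length, x axis) in each analysis (y axis), with the number called at an adjusted p under 0.05 in brackets; all analyses tested 15072 genes. The bars run from 138 to 1571, and of the analyses plotted only the one without shDap5 input replicate 2 has calls, 9 of them.

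Among genes at 5 CPM or more, the 10 lowest relative effects by p were those of Ptbp2, Neil3, Gramd2, Fads2, Zfpm2, Pask, Il18rap, Kpna2, Gcat and Cwh43, and none passed the test (adjusted p = 0.9996 for each). Ptbp2, a polypyrimidine tract binding protein that regulates splicing, had the smallest p of all. It stood at 45.3, 48.2 and 50.5 CPM in NSi inputs and at 66.3, 66.5 and 66.7 CPM in shDap5 inputs. On heavy polysomes it stood at 13.5, 12.8 and 12.9 CPM in NSi and at 11.4, 10.6 and 9.23 CPM in shDap5. Its input level was thus higher in every shDap5 library than in any NSi library, and its heavy level was lower in every one. The relative effect was -0.80 (SE 0.20, 95% interval -1.22 to -0.38), and by number it was -0.79, -0.74 and -0.88. Without shDap5 input 2 the relative effect of Ptbp2 was -0.80 (edgeR adjusted p = 0.206). On leaving out 1 library it ran from -0.871 (without shDap5 heavy 1) to -0.717 (without shDap5 heavy 3).

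Neil3, a DNA glycosylase of dividing cells, stood at 50.2, 68.5 and 56.7 CPM in NSi inputs and at 96.7, 93 and 94.8 CPM in shDap5 inputs. On heavy polysomes it stood at 23.9, 19.5 and 18.3 CPM in NSi and at 20.9, 20.6 and 17.7 CPM in shDap5. The input levels did not overlap between the arms, whereas the heavy levels did. Its relative effect was -0.76 (SE 0.20, 95% interval -1.19 to -0.34), with -1.14, -0.37 and -0.79 by number. Neil3 rose in input (adjusted p = 0.005089) and had a log2 change of -0.06 on heavy polysomes (adjusted p = 0.8723).

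Fads2, a fatty acid desaturase of polyunsaturated lipid synthesis, stood at 65.2, 63.9 and 65.4 CPM in NSi inputs and at 157, 62.9 and 165 CPM in shDap5 inputs. On heavy polysomes it stood at 144, 129 and 164 CPM in NSi and at 143, 140 and 128 CPM in shDap5. shDap5 inputs 1 and 3 were well above the NSi inputs, shDap5 input 2 was level with them, and the heavy levels overlapped. The relative effect was -1.07 (SE 0.33, 95% interval -1.77 to -0.37), with -1.27, 0.14 and -1.69 by number. Zfpm2, a cofactor of GATA transcription factors, had the same shape at lower levels: 5.03, 4.92 and 5.05 CPM in NSi inputs, 15.5, 6.27 and 15.4 CPM in shDap5 inputs, and 4.27 to 5.61 CPM in all 6 heavy libraries. Its relative effect was -1.17 (SE 0.36, 95% interval -1.93 to -0.40). Without shDap5 input 2 both were called, Fads2 at -1.40 (SE 0.178, adjusted p = 0.00422) and Zfpm2 at -1.49 (SE 0.239, adjusted p = 0.0214).

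The other 6 low values were -0.88 for Gramd2, -0.67 for Pask, a nutrient-responsive kinase, -1.36 for Il18rap, an interleukin receptor chain, -1.37 for Kpna2, a nuclear import receptor, -0.66 for Gcat, an enzyme of threonine breakdown in mitochondria, and -1.50 for Cwh43, which acts on the lipid of membrane-anchored proteins. Il18rap shows that a low relative effect can go with a gene whose levels were higher in shDap5 in both fractions (adjusted p = 0.0003354 in input and 0.08659 on heavy polysomes): it stood at 20.1 to 23.8 CPM in NSi inputs and 55.2 to 167 CPM in shDap5 inputs, and at 19.2 to 36 CPM and 47.8 to 62 CPM on heavy polysomes. Kpna2 was nearly absent from heavy polysomes, at 0.799, 1.32 and 0.844 CPM in NSi and 0.583, 0.598 and 0.272 CPM in shDap5, against 16 to 27.6 CPM in the inputs. With number 2 alone Il18rap, Gcat and Cwh43 were at -0.118, -0.0669 and -0.0559, against -2.03, -0.822 and -2.43 with number 1. Cwh43 was at -0.751 without NSi heavy 1.

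In the other direction the smallest p-values belonged to Cst6, Nqo1, Bscl2, Ggact, Id1, Hist1h2bc, H2afj, S100a1, Aktip and Antxr1, and again none passed (adjusted p = 0.9996 for each). Cst6 encodes a secreted cystatin, an inhibitor of lysosomal cysteine proteases. Its input levels were 12.3, 15.2 and 13.4 CPM in NSi and 9.71, 15.2 and 9.72 CPM in shDap5, and its heavy levels were 19.9, 14.7 and 16.4 CPM in NSi and 32.3, 24.6 and 24.7 CPM in shDap5. On heavy polysomes every shDap5 library was above every NSi library, whereas in input the arms overlapped. Its relative effect was 0.92 (SE 0.25, 95% interval 0.39 to 1.45), with 1.04, 0.74 and 1.05 by number. Cst6 rose on heavy polysomes (log2 change 0.68, adjusted p = 0.0414) and had a change of -0.24 in input (adjusted p = 0.518).

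Nqo1, a quinone reductase and a target of the antioxidant factor NRF2, fell in input and to a smaller extent on heavy polysomes. NSi inputs stood at 12.3, 12.7 and 13.5 CPM and shDap5 inputs at 3.06, 5.14 and 2.52 CPM. Heavy levels were 15, 16.9 and 19.2 CPM in NSi and 10.6, 8.71 and 9.55 CPM in shDap5. The arms did not overlap in either fraction, and the gap was wider in input. The relative effect was 1.01 (SE 0.32, 95% interval 0.35 to 1.68), with 1.49, 0.34 and 1.40 by number.

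Aktip, an AKT-interacting protein, had the smallest SE of the 10, with a relative effect of 0.42 (SE 0.17) and 0.55, 0.19 and 0.52 by number. It stood at 66.4 to 72.8 CPM in NSi inputs and 67.8 to 79.5 CPM in shDap5 inputs. On heavy polysomes it stood at 45.9, 45.8 and 46.8 CPM in NSi and 68.7, 61.5 and 64.6 CPM in shDap5. The heavy levels of the arms were well apart and the input levels overlapped. Bscl2, which encodes the lipid droplet protein seipin, stood at 6.02, 7.39 and 11.3 CPM on NSi heavy and at 17.9, 19.6 and 20.4 CPM on shDap5 heavy polysomes, with inputs of 9.7 to 12.1 and 12.7 to 16.3 CPM. The relative effect of Bscl2 was 0.87 (SE 0.29), and it was above 0 with each number. The remaining values were 0.67 for Ggact, 0.80 for Id1, an inhibitor of basic helix-loop-helix factors, 1 for the histone gene Hist1h2bc, 0.84 for the histone variant gene H2afj, 1.17 for the calcium-binding protein gene S100a1 and 0.62 for the collagen-binding receptor gene Antxr1. All 10 genes, which were chosen on these values, were above 0 with each of the 3 numbers. Without shDap5 heavy 3, S100a1 was at 0.602, Hist1h2bc at 0.6 and H2afj at 0.54.

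**Figure D3:**
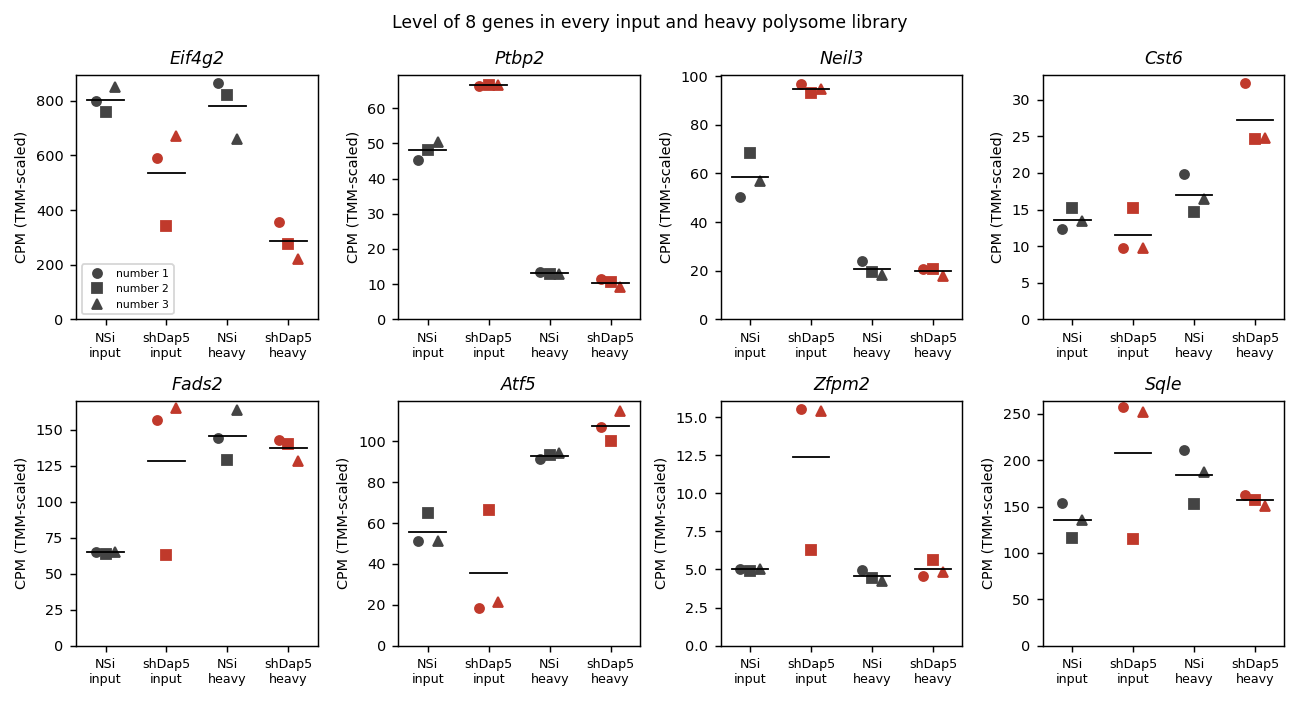
Level (CPM, TMM-scaled, y axis from 0) of 8 genes in the 3 libraries of each group (x axis); marker shape gives the library number, black is NSi, red is shDap5, and the horizontal bar is the group mean. For Ptbp2 and Neil3 the 3 shDap5 inputs agree closely, whereas for Fads2, Atf5, Zfpm2 and Sqle shDap5 input 2 (square) lies away from shDap5 inputs 1 and 3.

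Genes of the translation machinery come first among the lists, since DAP5 acts there. Over all genes tested the median relative effect was -0.0158 and 47.8% were above 0. Of 42 tested initiation factor genes, 5 were above 0 and 37 below, with a median of -0.142 and medians by number of -0.251, 0.0086 and -0.12. This depended on 1 control library: without NSi heavy 1 the median was -0.0154 with 22 of 42 below 0, and without shDap5 heavy 1 it was -0.251. None was called, and Eif4g2 alone had an unadjusted p under 0.05. The nearest others were Eif4ebp1, the mTOR-controlled inhibitor of eIF4E, at 0.51 (SE 0.30), and Paip2, an inhibitor of the poly(A) binding protein, at 0.50 (SE 0.31). Without shDap5 heavy 3 they were at 0.244 and 0.222. Eif3d, which encodes the subunit named with DAP5 in the series title, was at -0.0895, and Eif4g1, Eif4e and Eif4a1 were at -0.23, -0.385 and -0.177.

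Messages with a terminal oligopyrimidine tract (TOP) start, whose loading on ribosomes follows mTOR, lay on both sides of 0 or below it, depending on the library. The 82 cytosolic ribosomal protein genes had a median of -0.0809, 29 above 0 and 53 below. Of 18 other TOP genes 14 were below 0, with a median of -0.17 and medians by number of -0.167, -0.289 and -0.0751. That median was 0.024 without NSi heavy 1 and 0.0169 without shDap5 heavy 2, with 9 of 18 below 0 in each case. The number medians of the ribosomal protein genes were 0.157, -0.283 and -0.173, so they did not share a sign, and their median was 0.168 without shDap5 heavy 2 and -0.259 without shDap5 heavy 1. No member of either list had an unadjusted p under 0.05. Many ribosomal protein genes have near-identical copies elsewhere, and their counts are uncertain.

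Genes reported elsewhere as depending on DAP5 lay on both sides of 0. The 9 of them, Bcl2, Cdk1, Xiap, Birc2, Apaf1, Trp53, Cdkn1b, Myc and Hmgn3, had a median of -0.0201, with 4 above 0 and 5 below; the median was 0.104 without shDap5 heavy 1. Cdk1, the kinase of mitotic entry, was the only one with an unadjusted p under 0.05: 271, 285 and 298 CPM in NSi inputs, 452, 273 and 471 CPM in shDap5 inputs, 607, 482 and 614 CPM on NSi heavy and 606, 465 and 530 CPM on shDap5 heavy polysomes. The heavy levels overlapped, and 2 of the 3 shDap5 inputs were above all NSi inputs. Its relative effect was -0.57 (SE 0.26), with -0.74, 0.01 and -0.87 by number. Cdk1 was the only one of the 9 called in the blocked analysis without number 2, which called 419 of 15072 genes. That analysis leaves out the number in which Cdk1 was at 0.01. Bcl2, the inhibitor of apoptosis, was at 0.15 (SE 0.23), Hmgn3 at 0.21 (SE 0.27), and the other 6 lay between -0.0387 and 0.0578.

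Among 23 genes with regulatory upstream open reading frames, 12 were above 0 and 11 below (median 0.037), and of 32 genes of the integrated stress response 16 were on each side (median 0.00482). Both medians turned sign with the library left out, the first running from -0.0388 to 0.17 and the other from -0.132 (without NSi heavy 3) to 0.172 (without shDap5 heavy 3). Within them a few genes of the stress response had large values with numbers 1 and 3. Atf5 stood at 51.3, 64.7 and 51.2 CPM in NSi inputs and at 18.6, 66.5 and 21.6 CPM in shDap5 inputs, with 91.2, 93.4 and 94.1 CPM on NSi heavy and 107, 100 and 115 CPM on shDap5 heavy polysomes. Heavy levels of Atf5 were above NSi in every shDap5 library, and the input level was low in shDap5 inputs 1 and 3 only. The relative effect of Atf5 was 0.86 (SE 0.45, 95% interval -0.09 to 1.81) with all libraries and 1.68 (SE 0.227, adjusted p = 0.00596) without shDap5 input 2. Ddit3, which encodes the factor CHOP, had inputs of 62 to 87.9 CPM in NSi and 25.1, 99.8 and 23.9 CPM in shDap5, and a relative effect of 0.87 (SE 0.60); Trib3, an ATF4 and CHOP target, was at 0.88 (SE 0.54). By number the relative effect of Ddit3 was 1.46, 0.24 and 1.81, and that of Trib3 was 1.24, 0.15 and 1.95. Without shDap5 input 2 Ddit3 was at 1.89 and Trib3 at 1.71. Of the 32 genes, 3 were called in the blocked analysis without number 2, all higher, against 225 of 15072 called higher over all genes. Number 2 was left out after its values were seen, so that count gives no separate support. Atf4 itself was at -0.0396, and its values by number were -0.0691, -0.00941 and -0.0707. Nupr1, a stress-induced nuclear protein, rose in input (adjusted p = 0.02352) and had a relative effect of 0.57 (SE 0.36).

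The list furthest below the whole set was cholesterol synthesis. All 23 tested genes were below 0, with a median of -0.707 and quartiles of -0.842 and -0.597. Of them 4 had an unadjusted p under 0.05, against 137 of 15072 lower over all genes, and none was called. By number the median was -1.06, 0.0632 and -0.864. The input change had medians of 0.868, 0.0499 and 1.02, and the heavy change had medians of -0.231, 0.129 and -0.00277. The shift was thus present with numbers 1 and 3, where input levels were higher in shDap5 and heavy levels were not, and it was absent with number 2. With the number as a block within fraction, 17 of the 23 had an unadjusted p under 0.05, all lower. Over all genes tested, 746 of 15072 were lower at that p with that block. In the blocked analysis without number 2, 16 of the 23 were called lower, against 194 of 15072 over all genes. That analysis leaves out the number in which the shift was absent, so its count gives no separate support. Without shDap5 input 2 the median was -0.982, and without shDap5 heavy 2 it was -0.568.

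Sqle, the squalene epoxidase, is an example: 154, 116 and 136 CPM in NSi inputs, 257, 115 and 252 CPM in shDap5 inputs, 211, 153 and 187 CPM on NSi heavy and 163, 157 and 151 CPM on shDap5 heavy polysomes. The level in shDap5 input 2 was close to the lowest NSi input, and the heavy levels overlapped between the arms. Its relative effect was -0.85 (SE 0.37). Hsd17b7, a reductase of the later steps, was at -1.17 (SE 0.45). Scd2, a fatty acid desaturase that is not a member of the list and was chosen after its values were seen, had a like pattern, with 847, 726 and 771 CPM in NSi inputs and 2140, 862 and 2140 CPM in shDap5 inputs, and a relative effect of -1.08.

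Genes of DNA replication came next. All 40 tested S phase genes were below 0, with a median of -0.479. An unadjusted p under 0.05 was found for 1 of them, and for 20 with the block within fraction, all lower. With that block 746 of 15072 genes were lower at that p. Without number 2 the blocked analysis called 10 of the 40 lower, against 194 of 15072 over all genes. The S phase medians by number were -0.522, 0.0412 and -0.72, and without shDap5 input 2 the median was -0.693. In input the knockdown change had medians of 0.379, -0.314 and 0.439, so shDap5 input 2 was on the other side of 0 from its group, whereas on heavy polysomes the medians were -0.143, -0.292 and -0.354. Cdc45, a component of the replicative helicase, was at -0.50 (SE 0.24), Slbp, the histone stem-loop binding protein, at -0.61 (SE 0.29) and Mcm5, a helicase subunit, at -0.67 (SE 0.33). Mcm5 stood at 233 CPM in each NSi input and at 380, 201 and 395 CPM in shDap5 inputs. Of 30 genes of G2 and mitosis, 26 were below 0 (median -0.289, and by number -0.442, 0.0569 and -0.456), with Ccnb1, the mitotic cyclin, at -0.44 (SE 0.21). In the blocked analysis without number 2, 2 of the 30 were called lower, against 194 of 15072 over all genes. For both lists that analysis leaves out the number with medians of 0.0412 and 0.0569, so its counts give no separate support.

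All 31 proteasome subunit genes were below 0, with a median of -0.231 and medians by number of -0.354, 0.00741 and -0.283. None of them had an unadjusted p under 0.05, and 4 of the 31 did with the block within fraction, all lower. Over all genes tested, 746 of 15072 were lower at that p with the same block. Without NSi heavy 1 the median was -0.0789 with 26 of 31 below 0, and without shDap5 heavy 1 it was -0.371. Psmd13, a lid subunit, had the smallest p at -0.51 (SE 0.27), followed by the core subunit gene Psma5 at -0.48 (SE 0.26). The endoplasmic reticulum chaperones were mostly below 0 as well, 24 of 28 (median -0.134), led by Calr at -0.45 (SE 0.32), but without NSi heavy 1 their median was -0.0213 with 15 of 28 below 0; without shDap5 heavy 2 it was -0.307. Mean level also went with the relative effect: among all genes at 5 CPM or more, the bin of highest mean CPM of 5 equal bins had a median of -0.109 and the lowest bin had 0.0404. How much of any list's median goes with level was not tested.

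**Figure D4:**
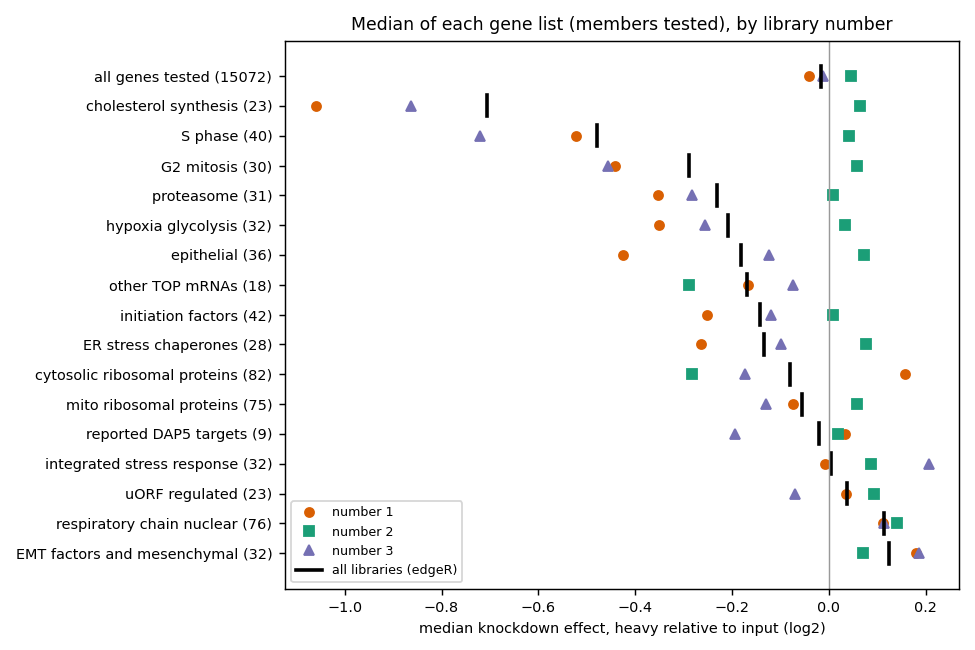
Median relative effect (log2, x axis) of all genes tested and of 16 gene lists (y axis, members tested in brackets); orange circles, green squares and purple triangles give the median with library numbers 1, 2 and 3, and the black bar gives the median of the edgeR values from all libraries. For cholesterol synthesis, S phase, G2 and mitosis and the proteasome, numbers 1 and 3 lie well below 0 and number 2 lies between 0.00741 and 0.0632.

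The series title concerns mesenchymal transition, and its gene lists were measured with the same contrast. Of 32 tested transition factors and mesenchymal genes, 19 were above 0 and 13 below, with a median of 0.124 and medians by number of 0.179, 0.0698 and 0.185. On leaving out 1 library the median ran from 0.067 (without shDap5 heavy 3) to 0.187 (without NSi heavy 2). None of the members had an unadjusted p under 0.05. Col5a1, a fibrillar collagen chain, fell in input (adjusted p = 0.0009504): 141, 138 and 134 CPM in NSi and 28.8, 60.5 and 31 CPM in shDap5. On heavy polysomes it stood at 72.4, 98.7 and 72.5 CPM in NSi and 24.1, 51.3 and 35 CPM in shDap5. The arms were apart in both fractions, and the relative effect of Col5a1 was 0.64 (SE 0.40), or 1.06 without shDap5 input 2 and 0.324 without shDap5 heavy 2. Twist1, a transcription factor of the transition, fell in input (adjusted p = 0.005612), from 37.3 to 41 CPM in NSi to 20.2 to 20.4 CPM in shDap5, and had a relative effect of 0.37 (SE 0.28), or 0.0938 without shDap5 heavy 3. Mmp9, a matrix protease of the same list, was at -1.02 with an SE of 0.74 and values by number of -2.13, 0.19 and -0.42; it was at -0.384 without NSi heavy 1.

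Epithelial genes lay on the other side. Of 36 tested, 28 were below 0 (median -0.181; by number -0.425, 0.0731 and -0.124), and none had an unadjusted p under 0.05. Without NSi heavy 1 the median was -0.0543 with 21 of 36 below 0, and without NSi heavy 2 it was -0.292. Ap1m2, a sorting adaptor of polarized epithelia, rose in input (adjusted p = 2.88e-05). It stood at 9.16, 7.6 and 9.3 CPM in NSi inputs and 55.1, 38.3 and 55 CPM in shDap5 inputs, and at 35.8, 14.7 and 24.4 CPM and 87.6, 69.6 and 92.8 CPM on heavy polysomes. The arms were far apart in both fractions, and the relative effect of Ap1m2 was -0.77 (SE 0.37), or -0.419 without NSi heavy 1. Ocln, a tight junction protein gene, was at -0.43 (SE 0.24) and Itgb4, the integrin of hemidesmosomes, at -0.37 (SE 0.25). Of 18 integrin genes 13 were below 0 (median -0.111), with Itgb1 at -0.50 (SE 0.42); the median was -0.345 without shDap5 heavy 2 and -0.00928 without shDap5 heavy 3.

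Of 32 hypoxia and glycolysis genes 23 were below 0 (median -0.208; by number -0.351, 0.0323 and -0.257). The median was -0.38 without shDap5 input 2 and -0.101 without shDap5 input 3. In the blocked analysis without number 2, 5 of the 32 were called lower, against 194 of 15072 over all genes. That analysis leaves out the number with a median of 0.0323, so its count gives no separate support. Car9, a carbonic anhydrase induced by hypoxia, had the smallest p: 175, 186 and 176 CPM in NSi inputs, 188, 128 and 192 CPM in shDap5 inputs, 286, 290 and 279 CPM on NSi heavy and 159, 225 and 175 CPM on shDap5 heavy polysomes. Its heavy levels did not overlap between the arms, while 2 of 3 shDap5 inputs were above all NSi inputs. The relative effect of Car9 was -0.53 (SE 0.25). Tpi1 and Pfkl, enzymes of glycolysis, were at -0.59 (SE 0.38) and -0.67 (SE 0.37). Angiogenic factors (21 tested, median 0.073) and genes of TGF-beta and Wnt signalling (41 tested, median -0.00891) were centred near the whole set, at 0.00978 to 0.0905 and -0.0636 to 0.0447 on leaving out 1 library; in the latter, Id2 was at 0.53 (SE 0.25) and Tgfbr3, a TGF-beta coreceptor gene, at 0.68 (SE 0.38).

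Nuclear genes of the respiratory chain stood above the whole set with all libraries, but the sign depended on single heavy libraries. Of 76 tested, 50 were above 0 (65.8%), with a median of 0.113 and medians by number of 0.112, 0.14 and 0.113. Each number thus gave nearly the same median here, unlike in the lists above. None had an unadjusted p under 0.05, whereas with the block within fraction 11 of the 76 did, all higher. Over all genes tested, 825 of 15072 were higher at that p with the same block. Ndufa7, a subunit of complex I, stood at 103, 110 and 104 CPM in NSi inputs, 82.9, 85.3 and 74.3 CPM in shDap5 inputs, 159, 145 and 288 CPM on NSi heavy and 207, 142 and 346 CPM on shDap5 heavy polysomes. Heavy libraries of the same number went together, number 3 being high in both arms. Its relative effect was 0.62 (SE 0.37), with 0.70, 0.33 and 0.76 by number. Ndufa4 was at 0.40 (SE 0.29) and Cox6c, a subunit of cytochrome oxidase, at 0.52 (SE 0.38). Without shDap5 heavy 3, Ndufa7, Ndufa4 and Cox6c were at 0.21, 0.186 and 0.144. The median of the list was -0.0452 without shDap5 heavy 3 (46 of 76 below 0) and -0.0314 without NSi heavy 2 (43 below 0), against 0.0479 without shDap5 input 2 and 0.335 without shDap5 heavy 2. The 75 genes of mitochondrial ribosomal proteins had a median of -0.0561, or 0.0893 without shDap5 heavy 2 and -0.163 without shDap5 heavy 1.

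Many respiratory chain genes are short, and coding length went with the relative effect. Of 9783 genes at 5 CPM or more with a coding length in GENCODE M21, the shortest of 5 equal bins (111 to 783 nt) had a median of 0.0578 with 59% above 0, and the other 4 bins had medians from -0.0899 to -0.0473. Unadjusted p-values under 0.05 were found for 19 genes higher and 7 lower in the shortest bin, and for 1 higher and 16 lower in the longest (2577 to 26400 nt). The bins between had 10 higher and 16 lower, 9 and 26, and 4 and 16, in order of length. Over all 10242 genes at 5 CPM or more, 45 were higher and 84 lower at that p. The Spearman correlation across genes was -0.134, and by number it was -0.263, 0.0117 and -0.027. In control cells the ratio of heavy to input level also went with length, at -0.323. These are descriptions across genes in the same 12 libraries. What part length has in the list medians was not tested.

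**Figure D5:**
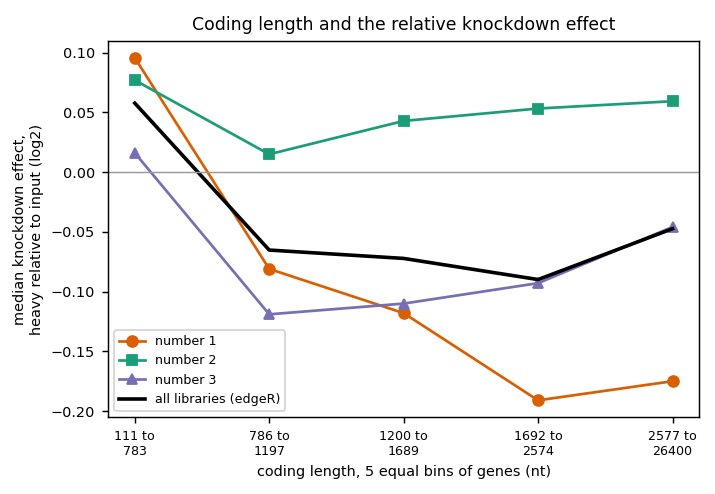
Median relative effect (log2, y axis) of genes at 5 CPM or more in 5 equal bins of coding length (x axis, range in nt), from all libraries (black line) and with library numbers 1, 2 and 3. The shortest bin is above 0 with every number, and beyond it numbers 1 and 3 lie below 0 and number 2 above.

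The genes furthest from 0 fell into distinct groups by library. Of the 63 genes at 5 CPM or more with a relative effect of at least 2-fold, 37 were higher and 26 lower, and none was called. In 13 of those the value came from number 2 alone: Cdk8, Lars2 and Camk1d among them, chosen after their values were seen. Cdk8, which encodes a Mediator kinase, stood at 101, 304 and 487 CPM on NSi heavy polysomes and at 106, 8080 and 301 CPM on shDap5 heavy polysomes, and at 845 to 1150 CPM in the 6 inputs. Lars2, a mitochondrial leucyl-tRNA synthetase gene, had 38.3, 104 and 161 CPM and 35.8, 3380 and 110 CPM on the same polysomes. One library thus set these means. The 13 genes summed to 28200 CPM in shDap5 heavy 2, against 414 to 1590 CPM in the other heavy libraries and 2560 to 3550 CPM in the inputs. Their relative effects ran from 1.65 to 3.91 with all libraries and from -1.27 to -0.237 without shDap5 heavy 2. The 13 also held Mir6236, Gm15564, Gm30821 and Gm36876. Mir6236, a microRNA gene, had 18.9, 72.2 and 117 CPM on NSi heavy and 22.8, 2670 and 69 CPM on shDap5 heavy polysomes. Whether the counts of these 13 symbols stand for the mRNAs of the named genes was not tested.

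Replication-dependent histone genes moved with the same library. Most histone mRNAs of this kind end in a stem-loop in place of a poly(A) tail, and polyA selection removes much of them. The 23 tested genes had a median relative effect of 2.18, with medians by number of 0.368, 3.69 and -0.0408, and 8 had an unadjusted p under 0.05, all higher. Only 2 of the 23 averaged 5 CPM or more, and fitted values of such low genes depend on the method: the median was 0.968 with limma-voom and 1.37 with the block within fraction, and the 3 members that reached 1 CPM in 3 libraries had a median of 0.896. The summed level of the 23 genes was 91.7 CPM in shDap5 heavy 2, 27.4 and 38.3 CPM in the other shDap5 heavy libraries, and 11.2 to 17.7 CPM in NSi heavy libraries. Without shDap5 heavy 2 the median was 0.269 and 1 gene had an unadjusted p under 0.05. That gene was Hist1h2bc, at 2.82, 2.12 and 3.05 CPM on NSi heavy and 6.9, 5.9 and 12.5 CPM on shDap5 heavy polysomes, with a relative effect of 1 (SE 0.40). Hist1h1c, a linker histone gene, was at 0.88 (SE 0.47), and its 3 shDap5 heavy libraries, at 15.4, 20.4 and 18.9 CPM, were all above NSi heavy libraries at 5.48, 5.27 and 7.77 CPM. Histone genes have near-identical copies, and their counts are uncertain.

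The other 50 genes past 2-fold, 24 higher and 26 lower, were further from 0 with number 1 than with number 2 in 49 cases and further from 0 with number 3 than with number 2 in 49. Mt1, a metallothionein gene, stood at 129, 140 and 120 CPM in NSi inputs and 13.8, 53.8 and 20.2 CPM in shDap5 inputs, and at 132, 84.2 and 175 CPM and 121, 38.2 and 119 CPM on heavy polysomes. All shDap5 inputs were below all NSi inputs, number 2 least so, and the heavy levels overlapped. The relative effect of Mt1 was 1.66, or 2.45 without shDap5 input 2. On the lower side stood Lamb3 and Lama3, which encode laminin chains of the epithelial basement membrane, at -1.06 and -1.12. Lamb3 stood at 142, 124 and 140 CPM in NSi inputs and 302, 184 and 298 CPM in shDap5 inputs. On heavy polysomes Lamb3 stood at 383, 162 and 98.1 CPM in NSi and 166, 293 and 139 CPM in shDap5, and the arms overlapped. Mt1, Lamb3 and Lama3 were chosen after their values were seen.

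Leaving out shDap5 input 2 gave 9 calls, and these genes too are named after their values were seen. Fads2 and Zfpm2 were the 2 lower ones. The 7 higher ones were Selp, Atf5, Cox6a2, Arl4d, Bdh2, Lrrc75b and Angptl6. Selp, the adhesion molecule P-selectin, stood at 34.9, 40.1 and 38 CPM in NSi inputs and 2.63, 16.7 and 2.21 CPM in shDap5 inputs, and at 29, 41.9 and 30 CPM and 10.1, 19.2 and 14.8 CPM on heavy polysomes. Its arms were apart in both fractions, with shDap5 input 2 between the groups. The relative effect of Selp was 1.20 with all libraries and 2.76 (SE 0.351, adjusted p = 0.00422) without shDap5 input 2. Bdh2, a dehydrogenase gene, stood at 1.98, 6.69 and 1.44 CPM in shDap5 inputs against 7.01 to 7.68 CPM in NSi inputs, and went from 0.80 to 1.77 (adjusted p = 0.0177). Lrrc75b and Arl4d went from 1.06 to 2.04 and from 1.29 to 2.35. In each of the 9 genes shDap5 inputs 1 and 3 lay together and shDap5 input 2 lay toward, among or past the NSi inputs. Cox6a2 had 0.0131 and 0.0192 CPM in shDap5 inputs 1 and 3, under the 3-count limit of detection of 0.0433 to 0.0611 CPM in the inputs, so its fitted value is not given as a size. The 9 genes were chosen because they were called on leaving out shDap5 input 2, and none of them was called with it. What sets that library apart was not tested.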

How the data were processed

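Polyadenylated RNA of 18 libraries was used, 12 of them (input and heavy polysomes) in the contrast. For each library the authors deposited raw, unscaled counts by gene symbol. Bowtie and the build mm9 are named in the submitters' processing notes; for the aligner's version, the counter, the gene models and strand, details were not given in the sources used here. A table holds 35976 symbols, 27 of which are dates and go unnamed. A symbol with 0 counts could stand at up to 3 counts, or 0.0421 to 0.0987 CPM in the 12 libraries; this covers counting error only. No replicate pair agreed within sampling noise (lowest chi-square per degree of freedom 9.57).

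Counts were fitted with edgeR 4.0.16 in R 4.3.3 (TMM, filterByExpr at 10 counts per library and 15 in total, robust quasi-likelihood F test), 1 mean for each of 6 groups over all 18 libraries, with 12 residual degrees of freedom (common BCV 0.227). P-values were adjusted by Benjamini-Hochberg over 15072 genes, and a gene is called, or said to rise or fall, at an adjusted p under 0.05. SE is the log2 value divided by the square root of F. Values by number are differences of log2 CPM with a prior count of 2. The test was checked on simulated data. DESeq2 1.42.0, limma-voom 3.58.1, other scalings and filters, replicate blocks and leaving out libraries were the alternatives.

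Whether numbers pair libraries was judged by the correlation of deviations from group means over 9429 genes: NSi with shDap5 of the same number gave 0.152, 0.317 and 0.365 in input and 0.517, 0.774 and 0.829 on heavy polysomes, all above 0.1, whereas input with heavy of the same arm gave -0.326 to 0.43. The pairing comes from the data, since the labels do not say what a number marks. Named genes were Eif4g2, the 10 smallest p-values in each direction at a mean of at least 5 CPM (no gene being called), and up to 3 members of each list by p at that mean; others are said to be chosen after their values were seen, apart from list members cited for their role, and some genes the rule names are not reported here. Members and lists were chosen with earlier results of these data known. Coordinates are left out because the annotation used for coding lengths (GENCODE M21, for 83.4% of genes tested) is of another build.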

Additional observations from a re-analysis of the deposited data

How the results depend on the processing

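No gene was called with other scalings, other filters, DESeq2, limma-voom, 12 libraries only or any replicate block over all numbers. The count at an unadjusted p under 0.05, 295 in the analysis reported, was 535 with no filter on low counts, 185 with a minimum of 1 CPM in 3 of the 12 libraries, 586 with a replicate block, 585 with a replicate block within arm and 1571 with a replicate block within fraction. Among analyses added after seeing the data, it was 1317 with that block in 12 libraries, 532 without number 1 and 3171 without number 2, the last calling 419 genes (225 higher, 194 lower) and giving Eif4g2 a relative effect of -1.05 (adjusted p = 0.0181). That last analysis called 40 of the 72 genes followed one by one, which were largely chosen on these same data. The blocks over all numbers changed no call. Leaving out a single library, or an arm's libraries of one number, gave 138 to 1563 genes at an unadjusted p under 0.05 and 0 to 13 calls (0 to 9 higher, 0 to 4 lower), the calls coming without shDap5 input 2 or without shDap5 replicate 2; without NSi heavy 3 the count was 849. Over the same omissions Bcl2 ran from -0.0841 to 0.34, Cdk8 from -0.609 to 3.79, Lars2 from -0.665 to 3.92 and Camk1d from -0.626 to 4.12, the last 3 being below 0 without shDap5 heavy 2. Blocked by number within fraction without number 2, Cdk8, Lars2 and Camk1d were at -0.37, -0.562 and -0.491. For the reversed values the alternative leaves out the library that held the high counts; for Bcl2 the cause was not tested.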

Other observations

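Interferon-stimulated genes had a different relative effect with each library number. The 39 tested genes had a median of 0.0711 with all libraries, 25 above 0 and 14 below, and medians by number of -0.387, 0.00545 and 0.88. The median was 0.654 (2 of 39 below 0) without shDap5 input 2, -0.105 without shDap5 heavy 2, -0.124 without shDap5 heavy 3 and -0.293 (35 below 0) without shDap5 replicate 3 in all fractions. Their knockdown change in input had medians of 0.0809, 1.14 and -0.198, and on heavy polysomes of -0.374, 1.17 and 0.736. None had an unadjusted p under 0.05 by edgeR. Bst2, the antiviral membrane tether tetherin, stood at 51.2, 64 and 50.3 CPM in NSi inputs and 47.8, 97.5 and 44 CPM in shDap5 inputs, and at 78.1, 65.3 and 145 CPM and 107, 114 and 233 CPM on heavy polysomes. Number 3 was the highest heavy library of both arms, and number 2 the highest input of both arms.

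The ferritin genes Ftl1 and Fth1, whose translation is held back by iron regulatory proteins, were above 0 with each number. Ftl1 stood at 352, 414 and 351 CPM in NSi inputs and 203, 388 and 222 CPM in shDap5 inputs, with 507, 440 and 675 CPM and 621, 464 and 820 CPM on heavy polysomes. The relative effect of Ftl1 was 0.69 (SE 0.43), and that of Fth1 was 0.64 (SE 0.54). The median of the 8 iron-responsive genes was -0.0218, and it ran from -0.258 to 0.154 on leaving out 1 library. Without shDap5 input 2 Ftl1 was at 1.04 (edgeR adjusted p = 0.446).

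The 7 mitochondrially encoded genes tested, whose mRNAs are not read by cytosolic ribosomes, were all below 0, with a median of -0.365 and medians by number of -0.832, -0.291 and -0.35. Without NSi heavy 1 the median was -0.105 with 5 of 7 below 0, and without NSi replicate 1 in all fractions it was 0.0906 with 1 of 7 below 0. Malat1, a nuclear noncoding RNA, stood at 290 to 448 CPM in the inputs and at 5.92 to 17.8 CPM on heavy polysomes, and had a relative effect of -0.59 (SE 0.43), or -0.0868 without NSi heavy 1.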
